A study of Mus musculus with 12 samples.

Results

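The matched m6A peaks of WT and Tyrobp KO hippocampus are 17015 pairs of peaks in 11139 genes. A pair joins a WT peak and a Tyrobp KO peak of the same gene and strand whose spans cover at least 50% of each other, and a peak with several such partners was left out. Spans include introns, so paired peaks can share few exon bases, and nested peaks of a gene can cover the same bases. The pairs take up 50.6% of the 33622 peaks listed for WT and 48.7% of the 34935 peaks listed for Tyrobp KO mice. The pairs were selected on measured values, the positions of the called peaks. The size of the enrichment was not used, but a peak had to be enriched enough to be called in both genotypes. A site that was gained or lost outright is therefore not among the pairs.

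The animals were male C57BL/6 mice of 6 months, either WT or Tyrobp KO (*Tyrobp*-/-), the latter carrying a small TALEN-made deletion in an exon of *Tyrobp* in every cell, with WT littermates as controls. Hippocampal RNA of 3 mice was pooled into 1 sample, and each genotype had 3 such samples. From each sample an IP library, made with an antibody against m6A, and an input library, made without it, were sequenced, 12 libraries in all with 61189368 to 73554506 valid reads each. The study asked how loss of TYROBP, a signalling adaptor of microglia, relates to m6A in the hippocampus.

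The m6A mark is a methyl group on adenosine inside mRNA. A complex built around METTL3 and METTL14, with WTAP, VIRMA, ZC3H13 and RBM15 proteins as partners, writes it, FTO and ALKBH5 can remove it, and YTH domain proteins bind it and influence splicing, translation and decay of the transcript. In brain mRNA the mark gathers near stop codons and in 3′ UTRs, with a smaller share in 5′ UTRs and long internal exons. Fold enrichment, the quantity compared here, is the read density of IP over input inside a peak, scaled by library totals. It ranks sites and genotypes by relative enrichment and gives no global m6A level. Each peak has 1 fold enrichment per genotype, because the 3 replicates were called together, so no replicate error, SD or test can be given for any pair, and all differences below are descriptions.

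Fold enrichment at matched sites was close in both genotypes. The median over the 17015 pairs was 6.00 in WT and 6.24 in Tyrobp KO mice. The log2 ratio of Tyrobp KO over WT fold enrichment had a median of 0.05, with quartiles of -0.25 and 0.36, and 54.4% of the pairs lay above 0. At least 2-fold higher enrichment in Tyrobp KO was listed for 934 pairs (5.49%) and at least 2-fold lower enrichment for 794 pairs (4.67%), which are the background shares for every count below. Across all pairs the log2 fold enrichments of the genotypes had a Pearson r of 0.824 and a Spearman rho of 0.835 (n = 17015 pairs, which share their libraries).

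**Figure D1:**
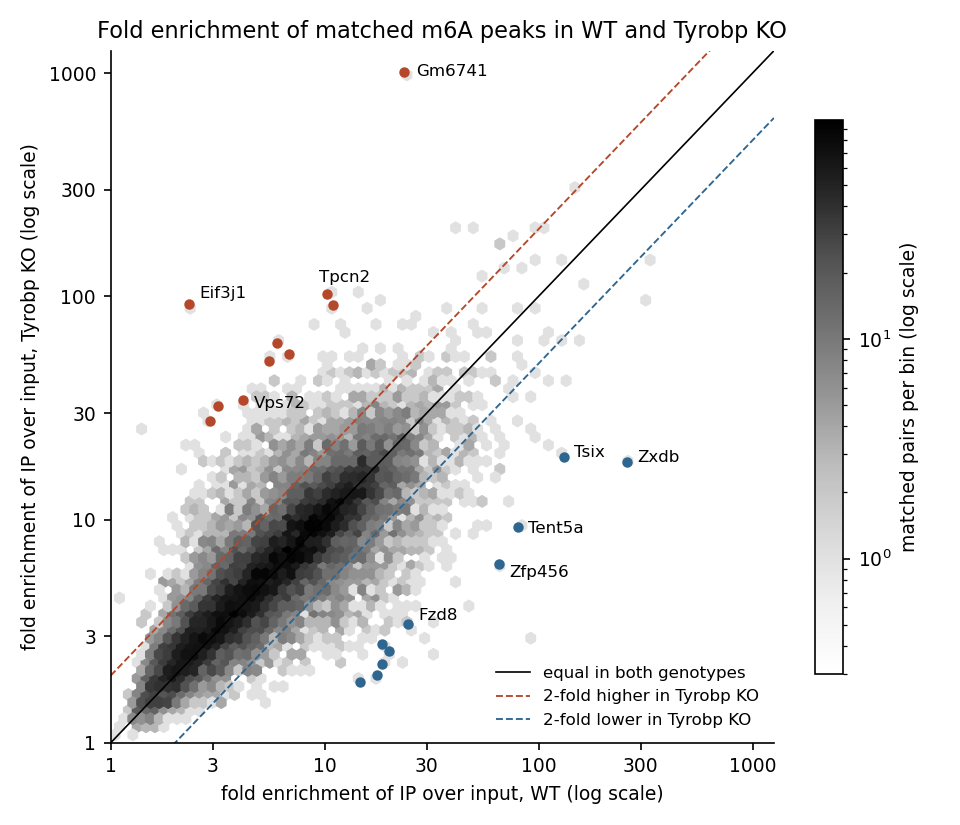
Fold enrichment of IP over input of each matched pair in WT (x axis) and Tyrobp KO (y axis), both on log scales, with the shade giving the number of pairs per bin. Most of the 17015 pairs lie between the dashed 2-fold lines, and the coloured points are the 10 pairs furthest up and the 10 furthest down among strongly called pairs, from *Gm6741* (23.4 to 1010) to *Zxdb* (258 to 18.1).

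The remaining peaks fall into 3 kinds. In WT, 1455 peaks (4.33%) belonged to several possible pairs, 7758 (23.1%) overlapped a peak of the same gene by less than the limit, and 7394 (22.0%) met none in the same gene. In Tyrobp KO these counts were 1468 (4.20%), 8002 (22.9%) and 8450 (24.2%). The peaks left out were weaker, with a median fold enrichment of 4.92 in WT and 4.96 in Tyrobp KO, and a median log10 peak-calling FDR of -3.81 and -3.68 against -49.9 and -49.2 for the matched peaks. Just inside the limit, at overlaps of 50% to 55%, 1072 pairs had a median log2 ratio of 0.10, with 9.79% at least 2-fold higher and 7.84% at least 2-fold lower. Just outside it, at 45% to 50%, 463 candidate pairs had a median of -0.03, with 9.50% and 10.2%.

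By the annotation the authors deposited, the 3′ UTR held 9667 pairs (56.8%), the 5′ UTR 2794 (16.4%), the first exon 1214 (7.13%) and any other exon 2845 (16.7%), while 495 (2.91%) had a different class in each genotype. The 3′ UTR pairs were the class with the highest median log2 ratio, 0.08, and 58.2% of them lay above 0. The median was 0.02 in 5′ UTRs (51.4% above 0), -0.01 in other exons (48.5%) and -0.03 in first exons (47.8%). After centring on the median of all pairs, the 5′ UTR median was -0.03 and the 3′ UTR median 0.03. As fold enrichment, the 3′ UTR median was 5.73 in WT and 6.15 in Tyrobp KO, the 5′ UTR median 6.45 and 6.35, the first exon median 7.81 and 7.62, and the other exon median 5.82 and 5.72.

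The spread of the log2 ratio differed more between classes than its median did. The interquartile range was 0.55 for 3′ UTR pairs, 0.70 for 5′ UTR pairs, 0.89 for first exon pairs and 0.66 for other exon pairs. At least 2-fold higher enrichment was found for 4.12% of 3′ UTR, 6.12% of other exon, 7.27% of 5′ UTR and 9.56% of first exon pairs, and at least 2-fold lower enrichment for 2.82%, 5.98%, 6.73% and 10.1%. Among exonic pairs outside the UTRs, the last exon of a transcript had 9.43% higher and 8.00% lower pairs and internal exons 3.47% and 4.36%. Of the 4284 pairs annotated to an exon in WT, 509 (11.9%) carried an exon of another gene ID than that of the peak. Pearson's r between the genotypes' log2 fold enrichments was 0.865 in 3′ UTRs, 0.80 in 5′ UTRs, 0.783 in other exons and 0.684 in first exons.

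**Figure D2:**
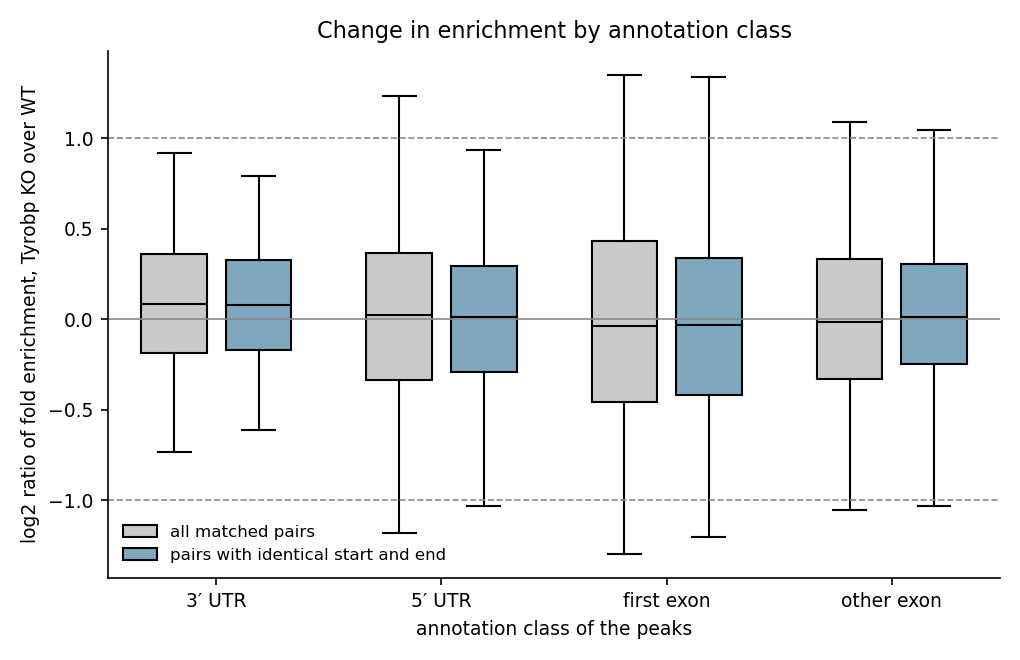
Log2 ratio of fold enrichment, Tyrobp KO over WT, by annotation class for all matched pairs (grey) and for the 1988 pairs with identical start and end (blue). Boxes span the quartiles with the median as a line, whiskers run from the 5th to the 95th percentile, and dashed lines mark 2-fold. The 3′ UTR medians are the highest of the 4 classes in both sets, at 0.08 and 0.08.

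Peak length also differed between the genotypes, to a degree that varied by class. The Tyrobp KO peak covered more exon bases than its WT partner in 48.2% of 3′ UTR pairs and fewer in 35.6%. In 5′ UTRs it was longer in 37.7% and shorter in 42.3%, and in other exons longer in 38.6% and shorter in 47.8%. In first exons, the class with the lowest median, it was longer in 42.7% and shorter in 43.0%. In the 1988 pairs with identical start and end the class medians were 0.08 in 3′ UTRs (n = 1159), 0.01 in 5′ UTRs (n = 464), -0.03 in first exons (n = 131) and 0.01 in other exons (n = 234). The IP libraries differed in base composition between the genotypes, with a GC content of 48.94% ± 0.44 (SD, n = 3) in Tyrobp KO and 49.72% ± 0.54 (SD, n = 3) in WT mice, against 47.84% ± 0.22 and 47.80% ± 0.18 (SD, n = 3 each) in the input libraries. The 4 libraries numbered 2 had 92.18% to 92.4% of bases at Q30 and the other 8 libraries 94.96% to 95.59%. Between IP libraries of the same number, Tyrobp KO minus WT was -0.91, -0.70 and -0.72 percentage points of GC, and between input libraries 0.37, 0.14 and -0.39. The part of base composition in the class medians was not tested.

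Genes with matched pairs in both UTRs let 5′ and 3′ sites of 1 transcript pool be compared. In 1233 such genes the median log2 ratio was 0.10 in the 3′ UTR and 0.00 in the 5′ UTR, and the median within-gene difference, 3′ UTR minus 5′ UTR, was 0.08 (quartiles -0.38 and 0.57). The 3′ UTR had the higher log2 ratio in 676 genes (54.8%), and the ratios of both UTRs had opposite signs in 615 genes (49.9%). Across these genes the ratios of both UTRs had a Pearson r of 0.049 and a Spearman rho of 0.018, and across 1367 genes with exactly 2 matched 3′ UTR pairs the 2 ratios had an r of 0.041 and a rho of 0.044. These points share their libraries. In 9 genes both UTRs differed at least 2-fold in the same direction, and in 4 genes in opposite directions.

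In the 8 genes with the largest differences between their UTRs, the 5′ UTR had the larger log2 ratio in size, among genes whose pairs all had a peak-calling FDR below 1e-5. In *Cavin1*, which encodes a coat protein of caveolae, fold enrichment at the 5′ UTR site was 5.47 in WT and 31.4 in Tyrobp KO (log2 ratio 2.52), while the 3′ UTR site was at 14.3 and 7.54 (-0.92). In *Ogdh*, a subunit of the 2-oxoglutarate dehydrogenase of the citric acid cycle, the 5′ UTR site was at 4.47 and 29.5 and the 3′ UTR site at 2.29 and 2.41. *Foxc1*, a forkhead transcription factor, and *Mylip*, an E3 ubiquitin ligase for lipoprotein receptors, had 5′ UTR log2 ratios of 1.59 and 2.23 beside 3′ UTR log2 ratios of -0.95 and -0.23. The opposite order was found in *Sin3a*, a scaffold of histone deacetylase complexes, whose 5′ UTR site was at 39.1 in WT and 6.67 in Tyrobp KO (-2.55) while its 3′ UTR site was at 3.63 and 4.34. The 5′ UTR sites of *Zfp768*, *Osbpl11* and *Eef1d* were also lower in Tyrobp KO, at log2 ratios of -2.08, -2.65 and -2.25, beside 3′ UTR log2 ratios of 0.66, -0.08 and 0.30. *Osbpl11* encodes an oxysterol-binding protein family member and *Eef1d* a subunit of the translation elongation factor eEF1.

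Strongly called pairs, with a peak-calling FDR below 1e-5 in both genotypes, numbered 13924, and 572 of them (4.11%) were at least 2-fold higher and 422 (3.03%) at least 2-fold lower in Tyrobp KO. The lowest log2 ratio was that of a 3′ UTR peak of *Zxdb*, an X-linked zinc finger gene, on chromosome X from 94726661 to 94727318 in WT (GRCm38, forward strand), with a fold enrichment of 258 in WT and 18.1 in Tyrobp KO, a log2 ratio of -3.83. *Zxdb* has a near-copy, *Zxda*, with which it may share reads. *Tent5a*, a noncanonical poly(A) polymerase, had a 5′ UTR peak on chromosome 9 from 85324290 to 85327318 at 80.1 in WT and 9.27 in Tyrobp KO (-3.11). *Fry*, a microtubule-binding protein, was at 17.6 and 2.01 in exon 59 of 61 (-3.13). *Zfp456*, a zinc finger gene of a family of similar copies, was at 65.4 and 6.31 (-3.37). *Fzd8*, a receptor for Wnt ligands, was at 24.4 and 3.39 in its single exon (-2.85).

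*Tsix*, the RNA antisense to *Xist*, had the same called positions in both genotypes. Its peak spanned the same 540 bases in both genotypes, on chromosome X from 103460396 to 103460935, and its fold enrichment was 131 in WT and 19.1 in Tyrobp KO (-2.78). The library protocol marked strand, but whether strand was used in counting is not given in the sources used here, and the exon annotation of this peak names a transcript of another gene ID. The position lies inside both *Tsix* and *Xist* in RefSeq, so their reads may not be told apart. The study states that all mice were male, and the sex of the mice in each pool was not checked here.

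The other 4 of the 10 lowest pairs joined peaks that shared few exon bases. *Cdr2l*, a cerebellar degeneration-related antigen, was at 18.6 and 2.25, but its WT peak covered 1761 exon bases and its Tyrobp KO peak 121, and the share of exon bases in common was 6.87%. *Chst12*, a chondroitin sulfotransferase, was at 18.6 and 2.77 with 10.6% of exon bases in common. *Mrps6*, of the mitochondrial ribosome, was at 14.6 and 1.87 with 16.7%, and *Epb41l1*, the neuronal cytoskeletal adaptor 4.1N, at 19.9 and 2.58 with 16.7%. When peaks were paired by exon bases in place of spans, the ratios of *Cdr2l* and *Chst12* were -0.25 and -0.28, *Epb41l1* was at 0.01 in the opposite direction, and *Mrps6* had no pair.

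On the higher side, *Gm6741*, a pseudogene in RefSeq, had the highest log2 ratio, at 23.4 in WT and 1010 in Tyrobp KO on chromosome 17 from 91237139 to 91237557 (log2 ratio 5.43). A pseudogene may share reads with its parent, which was not tested, so this value is uncertain. The same holds for *Eif3j1*, a subunit of translation initiation factor eIF3 with the copy *Eif3j2*, at 2.33 and 92.4 (5.31) with 36.9% of exon bases in common, and for *Mterf1b*, a mitochondrial transcription termination factor with the copy *Mterf1a*, at 6.00 and 61.5 (3.36). *Eya4*, a transcriptional coactivator with phosphatase activity, was at 3.18 and 32.4 in its 3′ UTR (3.35). *Tpcn2*, a cation channel of endosomes and lysosomes, had a 3′ UTR peak on chromosome 7 from 145254057 to 145254624 at 10.3 and 102 (3.31). *Ror2*, a receptor tyrosine kinase for WNT5A, was at 11 and 91.5 in its 3′ UTR (3.06). *Vps72*, a subunit of chromatin remodelling complexes that exchange histone H2A.Z, had 3′ UTR peaks of identical span, on chromosome 3 from 95122693 to 95123051, at 4.16 and 34.3 (3.04). The noncoding transcripts *Mir670hg* and *Gm40841* were at 2.91 and 27.6 and at 5.48 and 51.5, the latter with 24.2% of exon bases in common.

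The 3 pairs with the highest mean of the log2 fold enrichments also differed by over 2-fold between the genotypes. *Erg*, a transcription factor of endothelial cells, had a 3′ UTR peak at 329 in WT and 97.7 in Tyrobp KO (log2 ratio -1.75). *Inha*, the inhibin alpha subunit, was at 322 and 151 in its 5′ UTR (-1.09). *Syne1*, which encodes the nuclear envelope protein nesprin-1, was at 149 and 313 (1.07) in a 3′ UTR peak whose span was identical in both genotypes.

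Many of the high values above lie on a series of repeated values. In WT, 45.8% of matched fold enrichments from 15 to 100 were within 0.06 of a multiple of 0.976, and in Tyrobp KO 51.7% were within 0.06 of a multiple of 0.953. Among the 10 lowest and 10 highest pairs and the 8 genes with the largest differences between UTRs, this held for 7 of 13 such WT values, those of *Zfp456*, *Fry*, *Cdr2l*, *Fzd8*, *Chst12*, *Gm6741* and *Osbpl11*. It held for 15 of 16 such Tyrobp KO values, among them *Eif3j1*, *Eya4*, *Ror2*, *Vps72*, *Cavin1*, *Ogdh* and *Mylip*. Some values lie this close to a multiple by chance, and that share was not computed. The part of these steps in the ratios was not tested.

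The share of 2-fold differences varied with the calling strength and with how much of a pair was shared. Sorted by the weaker of the 2 peak-calling FDRs into 5 bins of 3403 pairs, the interquartile range of the log2 ratio was 0.38, 0.50, 0.62, 0.81 and 1.04 from the strongest to the weakest bin. The share at least 2-fold higher was 1.09% in the strongest and 11.9% in the weakest bin, and the share at least 2-fold lower 0.588% and 12%. The strongest bin held 75.6% 3′ UTR pairs and the weakest 31.6%. By shared exon bases, pairs with at most 25% in common (n = 111) were at least 2-fold higher in 25.2% and lower in 33.3%, and pairs with identical spans (n = 1988) in 3.72% and 3.57%. By change of length, 172 pairs whose Tyrobp KO peak was more than 2-fold longer had a median log2 ratio of 0.62, 296 pairs whose Tyrobp KO peak was at least 2-fold shorter had a median of -0.44, and 5499 pairs of nearly equal length had a median of 0.04, with 2.84% in each direction. The part of peak length in the single values above was not tested.

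**Figure D3:**
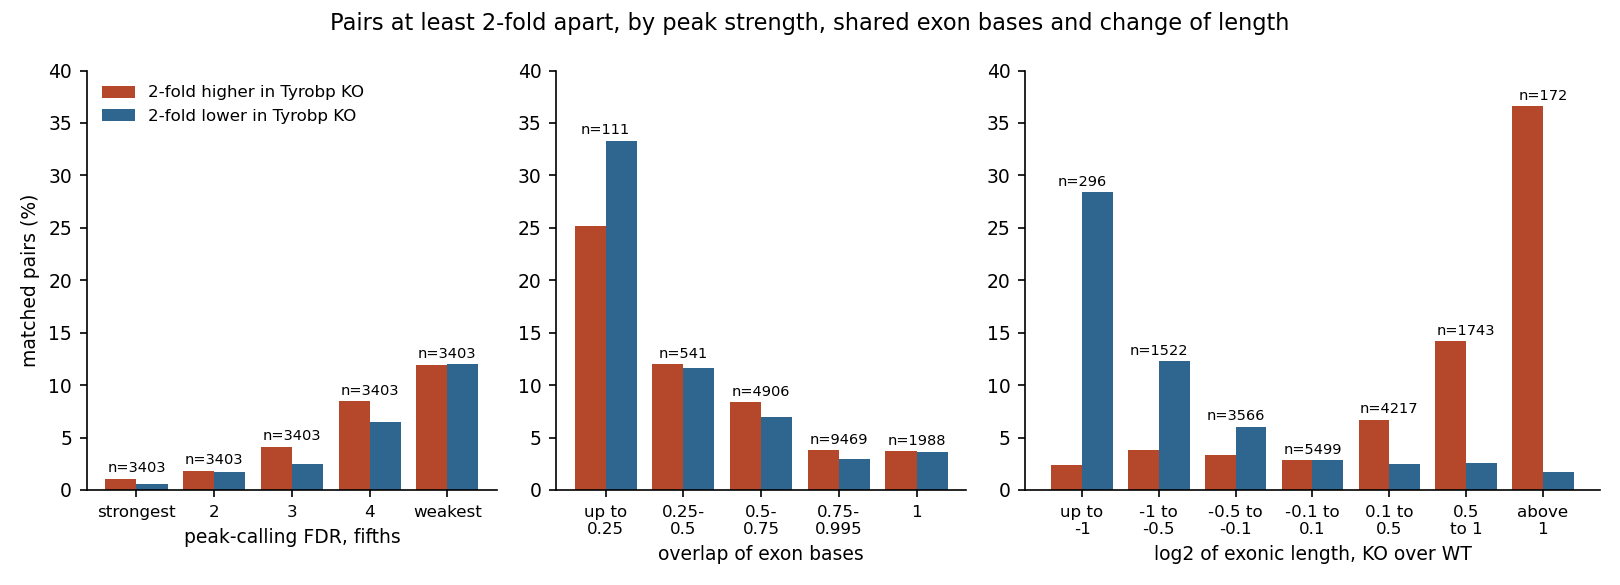
Percent of matched pairs at least 2-fold higher (red) or lower (blue) in Tyrobp KO, by 5 equal bins of the weaker peak-calling FDR (left), by the share of exon bases in common (middle) and by log2 of Tyrobp KO over WT exonic length (right), with the number of pairs above the bars. The shares climb from 1.09% and 0.588% in the strongest to 11.9% and 12% in the weakest bin, and in the right panel the direction follows the direction of the length change.

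A separate table of 5640 rows, deposited by the authors, compares the genotypes at a part of the peaks, and 2400 matched pairs correspond to one of its rows by gene and position. How rows entered that table is not given in the sources used here. The other 14615 pairs are outside it. Among them, 664 pairs (4.54%) were at least 2-fold higher and 586 (4.01%) at least 2-fold lower in Tyrobp KO, 411 and 314 of them among strongly called pairs. Inside the table these counts were 270 (11.2%) and 208 (8.67%). The median log2 ratio was 0.04 outside and 0.25 inside, and in 3′ UTRs 0.06 outside (n = 8250) and 0.32 inside (n = 1417), where 67.9% of the pairs lay above 0. Most 2-fold differences at matched sites lay outside that table, as did most matched pairs (14615 of 17015). Their share of the pairs was higher inside it, in both directions. That table compares the genotypes on the same libraries. If its rows were kept for a difference between them, the higher share inside would follow from that choice.

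**Figure D4:**
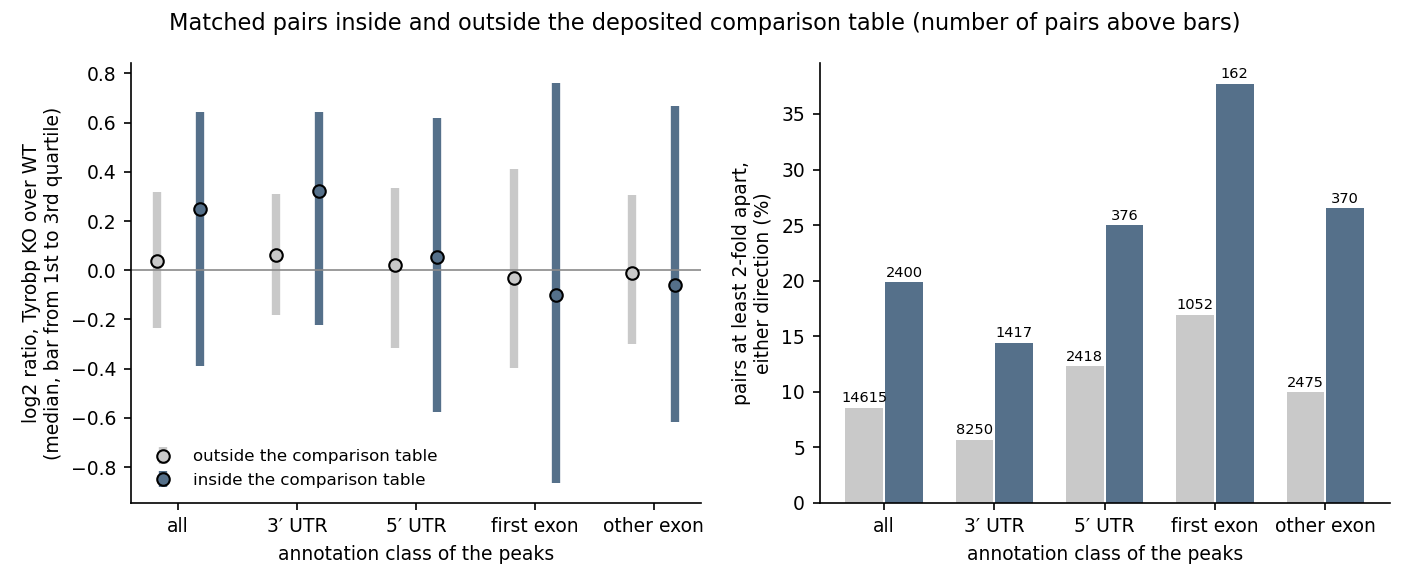
Log2 ratio, Tyrobp KO over WT (left, point for the median and bar between the quartiles) and percent of pairs at least 2-fold apart in either direction (right, number of pairs above each bar), for matched pairs outside (light) and inside (dark) the deposited comparison table, by annotation class. Inside the table the 3′ UTR median is 0.32 against 0.06 outside, and the bars are taller inside the table in every class.

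Outside the table, a stricter set was picked after the values were seen, with an FDR below 1e-100 in both genotypes and at least 75% of exon bases in common. It held 4614 pairs, 49 (1.06%) at least 2-fold higher and 29 (0.629%) at least 2-fold lower in Tyrobp KO. *Adcy8*, a calcium-stimulated adenylyl cyclase that acts in synaptic plasticity, had a 3′ UTR peak on chromosome 15 from 64699092 to 64699601 at 4.73 in WT and 30.5 in Tyrobp KO (log2 ratio 2.69). *Mgat1*, which starts complex N-glycan synthesis, was at 11.7 and 71.5 in a 5′ UTR peak of identical span (2.61). *Nyap1*, a neuronal adaptor of PI3K signalling, was at 40.4 and 195 in its 3′ UTR (2.27), again with identical span. *Cstad* was at 14.9 and 61.3 and *Tmem114* at 49.6 and 204. On the lower side, *Sipa1l3*, a GTPase-activating protein family member, was at 28.3 and 5.24 in its 5′ UTR (-2.43), *Eef1d* at 54.9 and 11.5 (-2.25), *Asxl1*, a Polycomb-associated chromatin regulator, at 52.7 and 11.8 (-2.16), and *Zim1*, an imprinted zinc finger gene, at 53.7 and 15.5 (-1.79).

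Most genes with matched sites had only 1 pair (7107 genes). In the 386 genes with at least 4 pairs, the range of the log2 ratio within a gene had a median of 1.01, all pairs lay above 0 in 37 genes and all below 0 in 16. The gene median was at least 2-fold higher in 2 genes, *Cfap45* (1.29) and *Sphk1* (1.12), and at least 2-fold lower in 1, *Fzd8* (-1.10). *Sphk1*, sphingosine kinase, had 4 sites at 11.7, 4.39, 4.23 and 5.49 in WT and 12.4, 17.2, 10.5 and 10.5 in Tyrobp KO, all above 0 in log2 ratio, though 2 of them were weakly called, at a log10 FDR of -1.93 and -3.66. *Cfap45*, of cilia, is less clear, since 2 of its 4 pairs shared 5.76% and 0% of exon bases. *Fnbp1*, a membrane-bending adaptor, was higher at 4 of 4 sites, from 0.44 to 1.08, as was *Fign*, a microtubule-severing protein, from 0.34 to 1.98. *Zscan29*, a zinc finger gene, was higher at 3 of 4 sites, with a median of 0.77.

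*Fzd8* varied by position. Its fold enrichment was 25.1 in WT and 9.70 in Tyrobp KO at the 5′ UTR, 24.4 and 3.39 inside its single exon and 7.45 and 4.17 at a distal site past the end of the RefSeq gene, while the first 3′ UTR site was at 20.0 in WT and 29.9 in Tyrobp KO. *Lrp8*, the reelin receptor ApoER2, was at 30.3 and 11 and at 24.4 and 9.05 at 2 sites whose exon annotation belongs to the opposite-strand gene *Lrp8os2*, and at 7.81 and 9.18 and at 1.90 and 2.12 in its 3′ UTR. *Tsc22d2*, a leucine zipper gene, and *D630045J12Rik* had gene medians of -0.72 and -0.78, with the highest log2 ratio at the 3′ UTR in both. *Bdnf*, the neurotrophin of activity-dependent plasticity, has alternative 5′ exons, and its 4 sites, all annotated as 5′ UTR, were at 14.6, 12.5, 8.79 and 15.4 in WT and at 5.6, 5.01, 33.4 and 15.1 in Tyrobp KO. The first 2 of these *Bdnf* sites were lower and the third higher in Tyrobp KO by over 2-fold. The first was weakly called in WT, at a log10 FDR of -4.26, and its peaks had 50.4% of exon bases in common. The broadest site, with the strongest call, differed by -0.03 in log2 ratio.

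Lists of genes for m6A enzymes, Alzheimer biology, synapses and cell types were read against the background of all pairs (median log2 ratio 0.05, 54.4% above 0). Of the 9 genes listed for the m6A writer complex, 7 had a pair, and their 16 pairs had a median of -0.12, with 6 above 0, none at least 2-fold higher and 1 at least 2-fold lower. The lower one was a 3′ UTR peak of *Rbm15b*, an RNA-binding partner of the complex, at 36.1 in WT and 10.1 in Tyrobp KO (-1.84), while the peak nested inside it was at 11.9 and 8.89 and the 5′ UTR peak at 32.2 and 24.8. *Mettl14* was at 4.23 and 2.67 in its 3′ UTR (-0.66). *Mettl16*, a separate m6A methyltransferase that was counted in this list, was at 5.17 and 3.59 and at 3.66 and 2.65. Of these *Mettl16* sites, 1 lies outside the RefSeq gene. The list median includes the *Mettl16* pairs and both the outer and the nested *Rbm15b* pair, and it was not computed without them. *Wtap* was at 6.70 and 7.42 in its 3′ UTR, and *Mettl3* had no peak in either genotype. These are sites in the enzymes' own transcripts and say nothing of enzyme amount.

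Erasers and readers had 11 pairs in 8 of 14 genes, with a median of 0.03 and no pair past 2-fold. *Fto* was at 3.03 in WT and 2.72 in Tyrobp KO, and *Alkbh5* had peaks in both genotypes but no pair. The reader genes *Ythdf2* and *Ythdf3* were at 8.12 and 8.74 and at 11.2 and 9.12. *Ythdf1* had the highest log2 ratio of this list, 0.78, at a weak site of 1.71 and 2.93.

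Of the amyloid precursor family and secretases, 12 of 13 genes had a pair, 17 pairs with a median of -0.03. *Bace2*, a protease related to the beta-secretase, was the 1 pair past 2-fold, at 4.01 in WT and 12.2 in Tyrobp KO (log2 ratio 1.61) in its 3′ UTR. *App* was at 8.45 and 9.43. *Bace1*, the beta-secretase, was at 4.80 and 4.53 in its 3′ UTR and at 4.50 and 2.55 in its 5′ UTR (-0.82), and *Psen2*, of the gamma-secretase, at 3.23 and 5.14. Tau and its kinases had 18 pairs in 11 of 14 genes, with a median of 0.14 and none past 2-fold. *Mapt*, which encodes tau, was at 2.09 and 2.32 and at 5.29 and 6.06. *Gsk3b*, a tau kinase, was at 23.2 and 23.0 in the 5′ UTR and 2.46 and 3.09 in the 3′ UTR.

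The immediate early genes, transcribed rapidly in active neurons, had 26 pairs in 16 of 20 genes. Of these pairs 1 was at least 2-fold higher and 3 at least 2-fold lower. Of these 4, 3 were the *Bdnf* sites past 2-fold, the first of them weakly called in WT. The remaining one was the 3′ UTR site of *Fosb*, an AP-1 transcription factor, at 35.5 in WT and 14.5 in Tyrobp KO (-1.29). *Npas4* and *Egr4* had sites at 7.28 and 13.9 and at 8.73 and 14, both short of 2-fold. *Arc*, which acts in receptor trafficking at synapses, was at 5.57 and 4.41 at its main 3′ UTR site.

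Synaptic genes had sites past 2-fold in both directions, as did all pairs (5.49% higher and 4.67% lower). Ionotropic glutamate receptors had 30 pairs in 15 of 16 genes, with a median of 0.04 and 1 pair past 2-fold in each direction (3.33%). *Grin1*, the obligatory NMDA receptor subunit, was at 5.86 in WT and 17.6 in Tyrobp KO (1.59) at a short, weakly called site (log10 FDR -2.37 in WT), and a 5′ UTR site of *Grin2a* was at 6.36 and 3.08 (-1.05). *Grin2b* was higher at 3 of 3 sites, at 10.5 and 14, 7.32 and 11.8, and 5.48 and 6.30, all short of 2-fold. *Gria1* was at 4.56 and 3.07 in its 5′ UTR and at 6.26 and 7.36 in its 3′ UTR.

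Postsynaptic scaffolds and synaptic organizers had 42 pairs in 20 of 24 genes, with 4 at least 2-fold higher (9.52%) and 2 at least 2-fold lower (4.76%). The higher ones were in *Dlg1* (3.32 to 12.4), *Lrrtm4* (2.83 to 9.65), *Lrrtm3* (11.4 to 27.6) and *Nrxn2* (17.1 to 39.1), and the lower ones in *Nlgn1* (10.1 to 4.51) and *Dlg2* (4.52 to 2.18). Those of *Dlg1* and *Dlg2* were weakly called, at a log10 FDR of -1.39 and -1.83, and that of *Nrxn2* lies past the end of the RefSeq gene. *Nlgn1*, a postsynaptic adhesion protein that binds neurexins, was lower at 2 overlapping 5′ UTR sites and at 3.16 and 3.92 and at 11.4 and 15.1 in its 3′ UTR. *Nlgn2*, its counterpart at inhibitory synapses, was at 4.64 and 2.33 in its 5′ UTR and at 13.6 and 12 in its strongest 3′ UTR site. The calcium/calmodulin-dependent kinases had 13 pairs with none past 2-fold, with *Camk2a* at 5.54 and 3.42 and at 3.54 and 4.44 at 2 sites of its 3′ UTR.

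**Figure D5:**
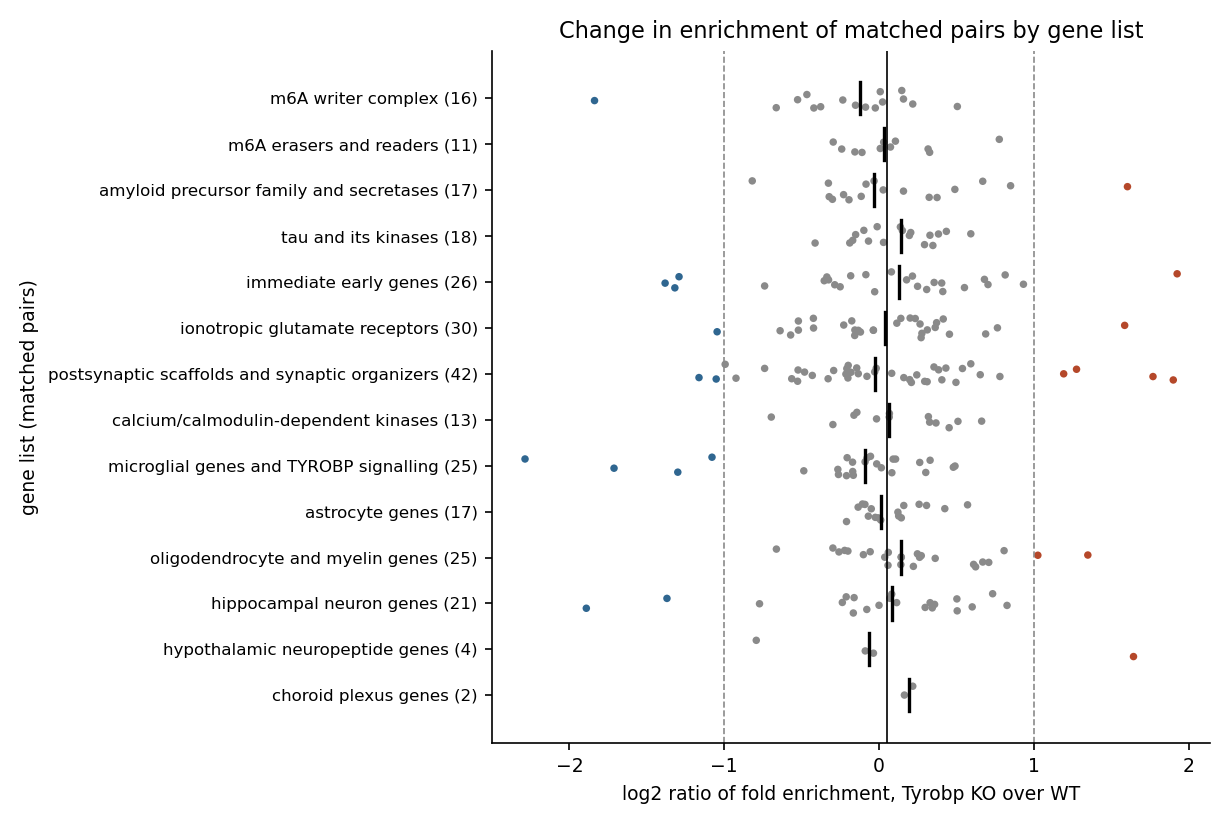
Log2 ratio of fold enrichment, Tyrobp KO over WT, of every matched pair in 14 gene lists, with the number of pairs in brackets. Short black bars are list medians, the long vertical line is the median of all pairs (0.05), and dashed lines mark 2-fold. The 4 pairs past 2-fold in the microglial list (16.0%, against 4.67% lower among all pairs) are all on the lower side. Those of *Irf8*, *Plcg2* and *Spi1* are weakly called.

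In the list of microglial genes and TYROBP signalling, 16 of 28 genes had a pair, and the 25 pairs had a median log2 ratio of -0.09, with 9 above 0 (36.0%), none at least 2-fold higher and 4 at least 2-fold lower (16.0%). *Irf8*, a transcription factor of the myeloid lineage, was at 18.6 in WT and 3.81 in Tyrobp KO in its 5′ UTR (-2.29). *Plcg2*, a phospholipase in signalling from TREM2 and TYROBP, was at 15.1 and 4.61 in its 3′ UTR (-1.71). *Spi1*, which encodes PU.1, was at 13.3 and 5.40 (-1.30) with 38.7% of exon bases in common, and *Csf1r*, the receptor on which microglia depend, at 5.66 and 2.68 (-1.08). Of these 4 pairs, those of *Irf8*, *Plcg2* and *Spi1* had a weaker log10 peak-calling FDR of -1.29, -4.16 and -2.25, and that of *Csf1r* -91.8. Other strongly called microglial sites were short of 2-fold, with *Cx3cr1* at 13 and 14, *Tmem119* at 8.72 and 7.54 and *P2ry12* at 5.67 and 6.99. *C1qa* was at 9.25 and 13 in the 3′ UTR and at 5.63 and 4.88 in the 5′ UTR. *Dok3* was at 27.6 and 19.7, and *Selplg* at 5.22 and 4.34 and at 5.28 and 4.96. *Tyrobp* itself and *Trem2* had no peak in either genotype. Fold enrichment measures neither transcript amount nor cell number, and in bulk tissue fewer cells of a type and less RNA per cell cannot be told apart.

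Oligodendrocyte and myelin genes had 25 pairs in 16 of 18 genes, with a median of 0.14, 18 above 0 (72.0%), 2 at least 2-fold higher and none lower. The higher ones were *Mag*, the myelin-associated glycoprotein, at 67.9 in WT and 173 in Tyrobp KO (1.35) over an identical span, and 1 of 3 sites of *Mbp*, at 7.81 and 15.9. *Mag* lies within 5 Mb of *Tyrobp* on chromosome 7, a region whose 181 pairs had a median log2 ratio of -0.03, with 5.52% higher and 6.63% lower. *Olig2*, the lineage transcription factor, was at 4.08 and 6.67 and at 38.1 and 66.7, and *Cnp* at 2.20 and 3.50 and at 14.6 and 22.3. Astrocyte genes had 17 pairs with a median of 0.01 and none past 2-fold, *Gfap* being at 2.96 and 2.78 and the main *Aqp4* site at 7.40 and 8.27.

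Genes that mark hippocampal neurons had a peak in 17 of 18 cases, and 11 had a pair, 21 pairs with a median of 0.08. The 2 pairs past 2-fold were both lower and both in 5′ UTRs, in *Neurod1* (37.1 to 10, -1.89) and *Neurod6* (11.5 to 4.45, -1.37), neuronal transcription factors, the latter with 18.0% of exon bases in common. *Wfs1*, a marker of CA1 neurons, was higher at 3 of 3 sites, at 3.18 and 5.29, 2.21 and 2.34, and 3.33 and 4.72. Of these 18 genes, 16 had a peak in WT and 17 in Tyrobp KO. Of 15 hypothalamic neuropeptide genes 8 had a peak in WT and 5 in Tyrobp KO, and of 10 choroid plexus genes 7 and 3, with a pair in 2 genes of each list. Over all genes, 15804 had a peak in WT and 16169 in Tyrobp KO. *Pmch*, *Hcrt* and *Ttr* had no peak in either genotype. The study lists *Pmch* and *Hcrt* among its top upregulated genes in Tyrobp KO by RNA sequencing. Peak lists cannot check the tissue label by transcript level. A missing peak says nothing of the level of the transcript.

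Genes that the study singles out for a change in m6A or expression had 14 pairs in 8 of 22 cases, and because the study chose them on these samples they are not independent of it. *H2-M5*, a nonclassical MHC gene, was at 22.5 in WT and 3.34 in Tyrobp KO (-2.75) at a weakly called site (log10 FDR -1.99), *Gpr176*, an orphan receptor, at 5.37 and 12.4 and at 3.86 and 5.75 (1 of these 2 sites being annotated to an exon of another gene ID), and *Alcam*, an adhesion molecule, at 14.6 and 7.15 at 1 of 4 sites and higher at the other 3.

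Among 18 KEGG pathways of synapses, signalling, immunity and basic metabolism, the pathway median lay between 0.00 for antigen processing and presentation (36 pairs) and 0.17 for long-term potentiation (67 pairs in 39 genes). Long-term potentiation had 45 pairs above 0 (67.2%), 4 at least 2-fold higher (5.97%), led by *Adcy8*, and 1 at least 2-fold lower (1.49%). Over all pairs 54.4% lay above 0, 5.49% were at least 2-fold higher and 4.67% at least 2-fold lower. Genes of the spliceosome had a median of 0.12 and 66.3% above 0, those of the Alzheimer disease pathway 0.12 and 61.8%, and those of oxidative phosphorylation 0.14 and 59.7%. The glutamatergic synapse had 122 pairs with 4 higher and 4 lower (3.28% each). The GABAergic synapse had 73 pairs with 1 higher (1.37%) and 5 lower (6.85%), and axon guidance 218 pairs with 10 higher (4.59%) and 4 lower (1.83%). Wnt signalling, which holds *Ror2* and *Fzd8*, had 155 pairs with 9 higher (5.81%) and 7 lower (4.52%), and a median of 0.03.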

How the data were processed

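MeRIP-seq data of 3 WT and 3 Tyrobp KO hippocampal samples were analysed as deposited. The authors trimmed reads with fastp, mapped them with HISAT2 to the mouse genome, used exomePeak for 1 joint peak call per genotype over its replicates, and named the gene and feature of each peak with ChIPseeker. Positions were read as GRCm38 after a check against RefSeq. In each peak list the authors deposited a ratio of IP over input (fold enrichment) and log10 p and FDR scores of peak calling. The read counts and the percent of G or C bases of each library were deposited by the authors in a separate table. The comparison table also holds log2 fold changes and p-values between the genotypes, which were not used, and only its gene identifiers and positions were read.

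Peaks were paired by gene, strand and reciprocal overlap of start-end spans of at least 50%, one-to-one, and the log2 ratio of the fold enrichments was computed with no pseudocount. The pairing was tested on simulated peaks without introns, set far apart, so spans that include introns were not tested. Of the pairs, 94.2% matched a RefSeq gene of GRCm38.p6 by symbol and 96.2% of those overlapped it, 1 pair each of *Agrp*, *Alcam*, *Fzd8*, *Mettl16* and *Nrxn2* and 3 of *Zim1* being among those that did not. No test was run, since replicates are pooled in each value, and reads per peak are not used here. Named genes were the 10 largest rises and falls at a peak-calling FDR below 1e-5, 5 genes with the highest and 5 with the lowest median among those with at least 4 pairs, the 4 largest differences between UTRs each way, the 3 pairs with the highest mean enrichment, and listed genes, of which a few are not reported here. The pairs and lists were chosen with earlier results of these data known. Alternatives were overlaps of 80% or 1 bp, exon bases, the best partner, an FDR below 1e-5, a fold enrichment of at least 4, 1 value per gene, centring and a fold of 1.5. Added after the data were seen were at least 75% of exon bases in common, leaving out the weakest of 5 FDR bins, and pairs of identical span or nearly equal length. Python 3.11.15, numpy 2.4.6, pandas 2.3.3 and matplotlib 3.10.9 were used.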

Additional observations from a re-analysis of the deposited data

How the results depend on the processing

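No paired analysis was possible because the replicates of a genotype were called together and each peak has a single value, and no replicate could be left out in turn for the same reason. The counts at least 2-fold higher and lower in Tyrobp KO, 934 and 794, were 459 and 415 at an overlap of 80%, 575 and 423 when only peaks with an FDR below 1e-5 were paired, 523 and 426 with 1 value per gene, and 2440 and 1888 at a fold of 1.5. Added after the data were seen, they were 446 and 362 with at least 75% of exon bases in common and 529 and 385 without the weakest of 5 FDR bins. A fold enrichment of at least 4 in both genotypes left 10689 pairs, 588 of them higher, and moved the median inside the comparison table to 0.12. The medians near 0 changed sign: in 5′ UTRs to -0.006 under that limit and to -0.028 after centring on the median of all pairs, outside the table to -0.015 after centring, and in other exons to 0.011 for identical spans. The 3′ UTR and first exon medians kept their signs under all alternatives run. Of the named pairs, *Epb41l1* changed sign to 0.014 when paired by exon bases, and of the named pairs 9 were lost at an overlap of 1 bp, 9 at a fold enrichment of at least 4, 8 at an overlap of 80% and 4 by exon bases. Depth per peak is not used here, so counting error cannot be given.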

Other observations

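The deposited fold enrichments repeat, most of all among weakly called peaks. Of WT peaks with a fold enrichment of at least 15 and a peak-calling FDR above 1e-15, 1400 peaks share 60 distinct values, and 95.2% lie within 0.06 of a multiple of 0.976, with 15.6 listed 210 times, 16.6 listed 172 times and 17.6 listed 135 times. In Tyrobp KO, 1467 such peaks share 65 values, 95.8% lie within 0.06 of a multiple of 0.953, and 15.2, 16.2 and 17.2 are listed 194, 174 and 135 times. The step of Tyrobp KO over that of WT is 0.976, and the ratio of input to IP valid reads in Tyrobp KO (1.055) over that in WT (1.078) is 0.979. Of these peaks, 660 in WT and 710 in Tyrobp KO belong to a matched pair. Among matched values from 15 to 100, the share on these steps is 90.3% in WT and 94.5% in Tyrobp KO at an FDR above 1e-15, and 16.0% and 21.5% at an FDR of 1e-100 or below. The share that would lie on these steps by chance was not computed, and the cause of the steps was not tested.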
